A study of Mus musculus with 12 samples.

Results

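Skeletal muscle transcripts were measured in mouse kidney. The 38 genes described here, of 39171 in the deposited count table, encode proteins of the muscle sarcomere, of its calcium release system and of its energy supply. They were chosen by symbol because muscle transcripts were high in the healthy knock-in libraries, so their level in those libraries chose them and is given only as a description. All 38 symbols were found in the table.

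RNA came from whole kidneys of male mice up to 3 months old, with 4 mice in each of 3 groups and 1 library per mouse. Sick knock-in mice carried the M743T/M743T knock-in of GNE, the enzyme that starts sialic acid synthesis, and were labelled sick. Healthy knock-in mice had the same genotype and were labelled healthy. Wild-type mice carried no knock-in. The labels do not name a strain, a criterion for sickness or a stage at which tissue was taken, and they do not say whether the knock-in comes from 1 founder.

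Libraries held 10605546 to 22633684 counts in sick, 18191087 to 21925419 in healthy knock-in and 13189478 to 19493856 in wild-type mice. Levels are in CPM, counts relative to a library size that was scaled by the trimmed mean of M-values, whose factors were 1.23 to 1.39 in sick mice and 0.804 to 0.933 in the others. The 10 kidney identity genes were abundant in every library, summing to 2444 to 6160 CPM in sick, 12967 to 15172 CPM in healthy knock-in and 12539 to 14909 CPM in wild-type mice. In whole-tissue RNA, fewer cells of a type and less RNA per cell cannot be told apart.

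A skeletal muscle fibre contracts when myosin thick filaments slide along actin thin filaments, which troponin opens to myosin once calcium has been released from the sarcoplasmic reticulum. Most of the parts exist as isoforms made by separate genes. Fast fibres use the myosin heavy chains encoded by Myh4, Myh1 and Myh2 with the troponins of Tnnt3, Tnnc2 and Tnni2, whereas slow fibres use Myh7, Tnnt1, Tnnc1 and Tnni1, and the heart shares Myh7 and Tnnc1 with slow fibres and uses Actc1 as its main actin. Kidney has no striated fibres of its own, and its vessels hold smooth muscle, which uses other isoforms.

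Promoter windows of 4 genes that were high in the healthy knock-in libraries, and of Tnnc1, which was not, are shown because these members were high together in the same mice. Each is the 250 bases before the gene's start in RefSeq on GRCm38.p6, given along the gene's own strand. Capitals mark an E-box (CANNTG, bound by the myogenic MyoD family), a TATA box (TATAAA), a MEF2 site or a CArG box (bound by serum response factor), searched on both strands. The windows are chr8:123894776-123895025 on the minus strand for Acta1 and, on the plus strand, chr7:19410844-19411093 for Ckm, chr11:67237562-67237811 for Myh4, chr11:67199852-67200101 for Myh1 and chr14:31208062-31208311 for Tnnc1.
Acta1: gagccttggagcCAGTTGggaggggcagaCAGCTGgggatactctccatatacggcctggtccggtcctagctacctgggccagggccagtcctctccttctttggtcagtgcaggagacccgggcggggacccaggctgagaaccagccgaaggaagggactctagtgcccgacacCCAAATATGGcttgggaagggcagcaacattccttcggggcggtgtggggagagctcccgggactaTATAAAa
Ckm: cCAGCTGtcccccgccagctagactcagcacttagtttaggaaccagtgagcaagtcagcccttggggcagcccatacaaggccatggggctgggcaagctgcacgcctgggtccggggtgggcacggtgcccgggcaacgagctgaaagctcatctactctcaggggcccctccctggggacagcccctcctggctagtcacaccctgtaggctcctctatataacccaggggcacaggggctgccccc
Myh4: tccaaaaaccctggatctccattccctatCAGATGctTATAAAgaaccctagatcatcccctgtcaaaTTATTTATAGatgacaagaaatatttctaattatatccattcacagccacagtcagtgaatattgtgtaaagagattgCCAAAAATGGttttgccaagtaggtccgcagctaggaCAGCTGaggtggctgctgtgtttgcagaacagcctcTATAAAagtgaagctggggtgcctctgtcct
Myh1: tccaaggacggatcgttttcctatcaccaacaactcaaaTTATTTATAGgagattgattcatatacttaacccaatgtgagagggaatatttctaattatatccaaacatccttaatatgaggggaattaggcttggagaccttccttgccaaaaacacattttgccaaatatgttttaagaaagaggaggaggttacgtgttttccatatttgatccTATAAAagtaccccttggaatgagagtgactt
Tnnc1: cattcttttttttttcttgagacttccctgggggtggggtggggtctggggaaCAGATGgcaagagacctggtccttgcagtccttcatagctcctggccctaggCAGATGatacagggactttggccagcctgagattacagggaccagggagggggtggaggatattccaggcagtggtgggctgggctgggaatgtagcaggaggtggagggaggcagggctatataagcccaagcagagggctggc
The MEF2 site of Myh4 and of Myh1 overlaps a TATA box read on the opposite strand.

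RefSeq windows were found for 29 of the 38 members. A CArG box stood in 5 of the 29 (17.2%: Acta1, Actc1, Myh4, Ldb3 and Myom1), against 1.47% of all 32851 promoter windows of that length. A MEF2 site stood in 3 (10.3%: Ttn, Myh1 and Myh4), against 2.92% of all windows. E-boxes were common in both, in 22 members (75.9%) and in 66.2% of all windows, and TATAAA stood in 5 members (17.2%) against 12.4%. These matches describe letters in a window and say nothing of binding.

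Summed over the 38 genes, muscle transcripts reached 55.0, 93.5, 57.5 and 104 CPM in sick mice 1 to 4, 541, 481, 519 and 744 CPM in healthy knock-in mice 1 to 4, and 43.0, 46.7, 43.0 and 36.7 CPM in wild-type mice 1 to 4. The means were 77.4 ± 24.8 CPM in sick, 571 ± 118 CPM in healthy knock-in mice and 42.4 ± 4.18 CPM in wild-type mice (SD, n = 4 each). The 3 groups did not overlap in this sum. Even in the healthy knock-in libraries these genes held only 0.0448% to 0.0597% of all counts.

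**Figure D1:**
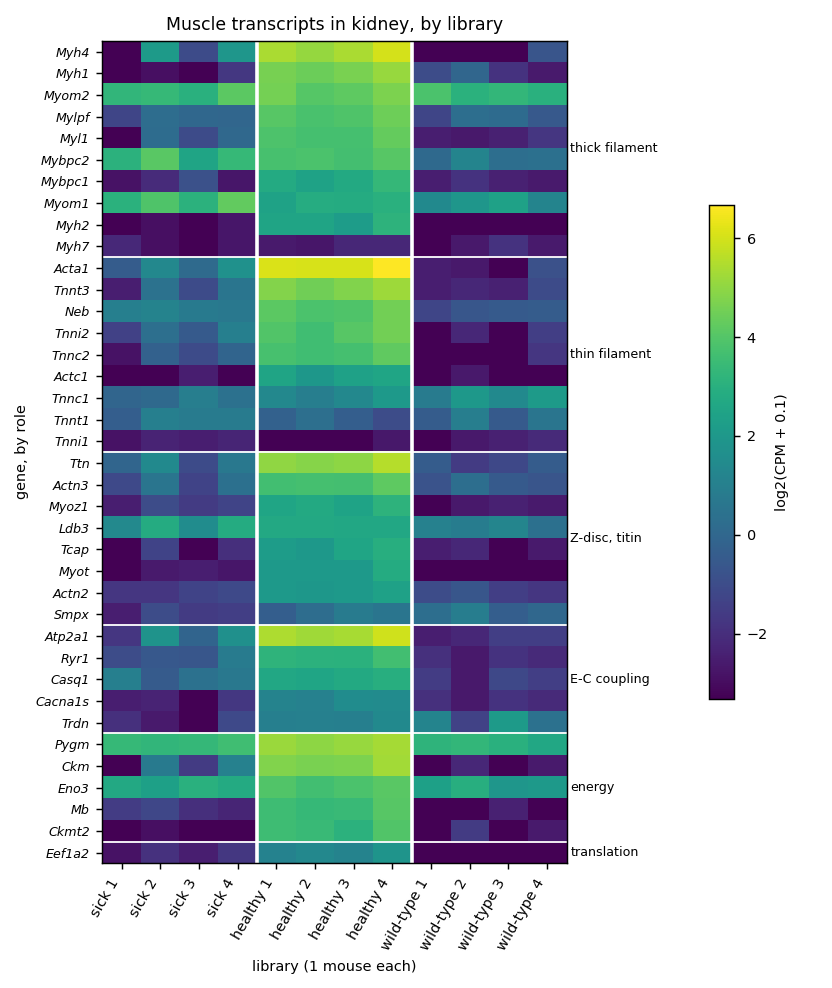
Level of each of the 38 muscle genes (rows, grouped by role) in each of the 12 kidney libraries (columns), coloured by log2(CPM + 0.1). Most rows are brightest in the 4 healthy knock-in libraries, while a few, such as Myom1, Myom2, Pygm and Eno3, are bright in all 12.

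The sum hides 2 kinds of member. Under 1 CPM on average in wild-type kidney were 28 members, 15 of which were listed at 0 in at least 1 wild-type library, and Myh2, Myot and Eef1a2 were at 0 in all 4. Together the 28 reached 7.87, 26.3, 10.7 and 27.1 CPM in sick mice 1 to 4, 435, 387, 420 and 621 CPM in healthy knock-in mice 1 to 4, and 3.64, 5.95, 4.68 and 6.0 CPM in wild-type mice 1 to 4. The other 10, Tnnt1, Tnnc1, Ldb3, Myom1, Myom2, Mybpc2, Trdn, Pygm, Eno3 and Smpx, had a level of their own in wild-type kidney. Those 10 summed to 47.2, 67.2, 46.8 and 76.6 CPM in sick mice, 106, 94.0, 99.6 and 123 CPM in healthy knock-in mice, and 39.4, 40.8, 38.3 and 30.7 CPM in wild-type mice.

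Among the thin filament genes, Acta1 (chr8:123891769-123894751, minus strand, GRCm38), the actin of adult skeletal muscle, had the highest level per kilobase of exon of all members in healthy knock-in kidney. Its level was 0.649, 2.46, 0.998 and 3.19 CPM in sick mice 1 to 4, 68.1, 66.1, 67.4 and 102 CPM in healthy knock-in mice 1 to 4, and 0.0809, 0.0589, 0 and 0.457 CPM in wild-type mice 1 to 4. The wild-type values are 1, 1, 0 and 7 counts. The 3 groups did not overlap, and healthy knock-in mouse 4 stood above the other 3 of its group.

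Tnnt3, fast troponin T, which anchors the troponin complex to tropomyosin, had 0.0811, 1.26, 0.384 and 1.39 CPM in sick mice 1 to 4, 27.96, 22.6, 27.0 and 36.9 CPM in healthy knock-in mice, and 0.0809, 0.118, 0.0867 and 0.391 CPM in wild-type mice. Tnnc2, the calcium-binding subunit of fast fibres, had 1, 23, 5 and 16 counts in sick mice 1 to 4, 213, 229, 229 and 331 counts in healthy knock-in mice, and 0, 0, 0 and 3 counts in wild-type mice. Tnni2, the inhibitory subunit of fast fibres, had 7, 35, 8 and 37 counts in sick mice 1 to 4, 240, 233, 294 and 403 counts in healthy knock-in mice, and 0, 2, 0 and 4 counts in wild-type mice. All 3 fast troponins were thus far higher in each healthy knock-in library than in any other, and among sick mice they were higher in mice 2 and 4 than in mice 1 and 3.

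The slow troponins did not share this pattern. Tnnt1 had 0.689, 1.89, 1.69 and 1.70 CPM in sick mice 1 to 4, 0.763, 1.15, 0.687 and 0.397 CPM in healthy knock-in mice, and 0.647, 1.83, 0.607 and 1.37 CPM in wild-type mice, so that the groups overlapped. Tnnc1, whose product is troponin C of slow fibres and heart, had 0.851, 0.963, 1.84 and 1.23 CPM in sick mice, 2.41, 1.84, 2.46 and 4.15 CPM in healthy knock-in mice, and 1.70, 3.95, 2.60 and 4.24 CPM in wild-type mice. Healthy knock-in and wild-type mice overlapped for Tnnc1. Tnni1 was close to absent, with 1, 3, 1 and 2 counts in sick, 0, 0, 0 and 1 in healthy knock-in and 0, 1, 1 and 2 in wild-type mice, and it failed the filter on low counts.

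Actc1, the actin of heart and of developing skeletal muscle, had 0, 0, 1 and 0 counts in sick mice 1 to 4, 89, 73, 89 and 102 counts in healthy knock-in mice, and 0, 1, 0 and 0 counts in wild-type mice. It was thus high in the same 4 libraries as the skeletal genes. Neb, which encodes nebulin, the ruler along the thin filament, averaged 1.77 ± 0.274 CPM in sick, 17.6 ± 4.20 CPM in healthy knock-in mice and 0.528 ± 0.145 CPM in wild-type mice (SD, n = 4 each).

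The fast myosin heavy chain genes lie side by side on the plus strand of chromosome 11, Myh2 at chr11:67171027-67197517, Myh1 at chr11:67200052-67224575 and Myh4 at chr11:67238029-67260446 in GRCm38. Myh4, the chain of the fastest fibres (type IIB), had 0, 129, 5 and 72 counts in sick mice 1 to 4, 660, 650, 740 and 1130 counts in healthy knock-in mice, and 0, 0, 0 and 8 counts in wild-type mice. Myh1, the chain of type IIX fibres, had 0, 1, 0 and 4 counts in sick mice, 389, 402, 435 and 617 counts in healthy knock-in mice, and 5, 15, 2 and 1 counts in wild-type mice. Myh2, the chain of type IIA fibres, had 0, 1, 0 and 1 counts in sick mice, 89, 107, 79 and 153 counts in healthy knock-in mice, and none in the 4 wild-type libraries. All 3 were high in each healthy knock-in library, but sick mice 2 and 4 held Myh4 with hardly any Myh1 or Myh2.

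Myh7, the slow and cardiac chain, had 3, 1, 0 and 1 counts in sick, 1, 1, 2 and 2 counts in healthy knock-in and 0, 1, 2 and 1 counts in wild-type mice, and it also failed the filter. The myosin genes resemble each other: of the exonic 50-base stretches, 25.4% of Myh1, 22.9% of Myh2, 18.9% of Myh4 and 15.6% of Myh7 also occur in another gene, mostly another myosin. With the handling of such reads not given in the sources used here, how counts divide between these genes is less certain than their sum.

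**Figure D2:**
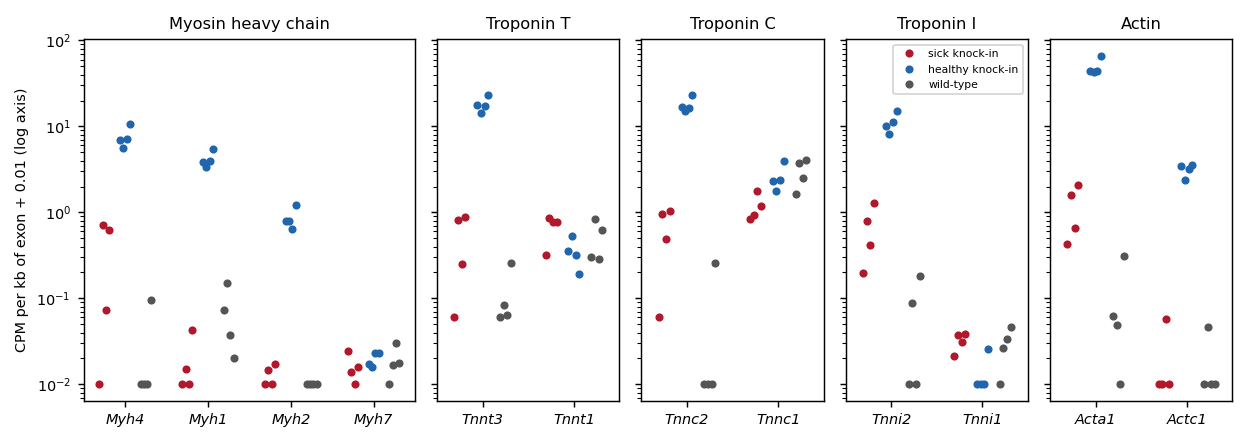
Fast, slow and cardiac isoforms in each library, as CPM per kilobase of exon plus 0.01 on a log axis. Points are single mice, grouped as sick knock-in, healthy knock-in and wild-type, and healthy knock-in mice stand highest for Myh4, Myh1, Myh2, Tnnt3, Tnnc2, Tnni2, Acta1 and Actc1 but not for Myh7, Tnnt1, Tnnc1 or Tnni1.

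The myosin light chains followed the fast heavy chains. Mylpf, the regulatory light chain of fast fibres, had 8, 33, 12 and 17 counts in sick mice 1 to 4, 263, 265, 265 and 387 counts in healthy knock-in mice, and 4, 19, 12 and 9 counts in wild-type mice. Myl1, the essential light chain of fast fibres, had 0, 1.06, 0.384 and 0.925 CPM in sick mice, 14.5, 13.0, 12.9 and 19.9 CPM in healthy knock-in mice, and 0.0809, 0.0589, 0.0867 and 0.196 CPM in wild-type mice. For Mylpf, sick and wild-type mice overlapped fully. Of the 50-base stretches of Myl1, 11.7% also occur in the pseudogene Mylf-ps, so its level is less certain.

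Other thick filament genes differed. Mybpc2, fast myosin-binding protein C, had 8.55, 17.3, 5.60 and 10.3 CPM in sick mice 1 to 4, 13.5, 14.1, 12.9 and 16.7 CPM in healthy knock-in mice, and 0.971, 2.18, 1.13 and 1.17 CPM in wild-type mice, so that both knock-in groups stood above every wild-type mouse. Myom1, which encodes the M-line linker myomesin, had 8.19, 14.9, 8.52 and 19.0 CPM in sick mice, 5.34, 7.09, 6.98 and 8.06 CPM in healthy knock-in mice, and 2.59, 3.66, 5.20 and 2.15 CPM in wild-type mice, and was the only member whose sick libraries all stood above the healthy knock-in ones. Its relative Myom2 averaged 11.4 ± 4.28, 21.1 ± 4.62 and 10.1 ± 2.82 CPM in sick, healthy knock-in and wild-type mice (SD, n = 4 each). Mybpc1, the slow-type binding protein, averaged 0.171 ± 0.197, 7.17 ± 1.98 and 0.102 ± 0.0504 CPM in the same order, so this slow-named gene was high with the fast ones.

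At the Z-disc, where thin filaments of neighbouring sarcomeres meet, Tcap (titin cap) had 0, 0.299, 0 and 0.154 CPM in sick mice 1 to 4, 4.51, 3.94, 5.72 and 7.61 CPM in healthy knock-in mice, and 0.0809, 0.118, 0 and 0.0652 CPM in wild-type mice. Actn3, the alpha-actinin of fast fibres, had 9, 42, 4 and 23 counts in sick mice, 194, 248, 223 and 320 counts in healthy knock-in mice, and 6, 19, 7 and 8 counts in wild-type mice. Myoz1, a calcineurin-binding Z-disc protein of fast fibres, had 2, 12, 3 and 6 counts in sick mice, 90, 125, 95 and 153 counts in healthy knock-in mice, and 0, 1, 1 and 1 counts in wild-type mice. In all 3 the sick libraries lay far below the healthy knock-in ones.

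Ttn, which encodes titin, the spring from Z-disc to M-line, averaged 1.32 ± 0.940 CPM in sick, 34.4 ± 8.06 CPM in healthy knock-in mice and 0.471 ± 0.212 CPM in wild-type mice (SD, n = 4 each). Ldb3, a Z-disc scaffold, had a kidney level of its own, at 4.83 ± 2.49 CPM in sick, 6.32 ± 0.142 CPM in healthy knock-in mice and 1.79 ± 0.467 CPM in wild-type mice. Actn2 and Myot, which encode Z-disc proteins, averaged 0.267 and 0.0486 CPM in sick, 4.28 and 4.82 CPM in healthy knock-in and 0.348 and 0 CPM in wild-type mice. Smpx, a small protein of striated muscle, went the other way in sick mice, at 0.242 ± 0.130 CPM, against 1.21 ± 0.408 CPM in healthy knock-in mice and 1.13 ± 0.464 CPM in wild-type mice.

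Excitation-contraction coupling links the fibre's action potential to calcium release. Atp2a1, the calcium pump of fast fibres (SERCA1), had 0.203, 3.45, 0.844 and 3.13 CPM in sick mice 1 to 4, 43.3, 38.3, 40.7 and 61.0 CPM in healthy knock-in mice, and 0.0809, 0.118, 0.260 and 0.261 CPM in wild-type mice. Casq1, the calcium store protein calsequestrin of fast fibres, had 1.91, 0.631, 1.23 and 1.49 CPM in sick mice, 6.29, 5.72, 6.70 and 7.55 CPM in healthy knock-in mice, and 0.243, 0.0589, 0.347 and 0.261 CPM in wild-type mice. Within the sick group, Casq1 was highest in mouse 1, in which Myh4, Myl1 and Ckm had no count.

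Ryr1, the calcium release channel, averaged 0.801 ± 0.601 CPM in sick, 9.48 ± 2.07 CPM in healthy knock-in mice and 0.131 ± 0.0514 CPM in wild-type mice (SD, n = 4 each). Cacna1s, its voltage sensor, averaged 0.0966 ± 0.0846, 2.41 ± 0.419 and 0.131 ± 0.0514 CPM in the same order. Trdn, which encodes triadin, the partner of Ryr1, had 4, 2, 0 and 7 counts in sick mice, 30, 37, 33 and 45 in healthy knock-in mice and 27, 5, 49 and 19 in wild-type mice, so that wild-type kidney held it at a level that spanned that of the healthy knock-in libraries.

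Of the energy genes, Ckm, the muscle creatine kinase that buffers ATP, had 0, 48, 3 and 39 counts in sick mice 1 to 4, 428, 479, 454 and 684 counts in healthy knock-in mice, and 0, 2, 0 and 1 counts in wild-type mice. Its row overlaps A930016O22Rik, an antisense gene that was also high in the healthy knock-in libraries (7.56 to 10.5 CPM). With strand use not given in the sources used here, reads of the pair cannot be told apart. Pygm, muscle glycogen phosphorylase, had 10.1, 9.36, 9.98 and 12.2 CPM in sick mice, 35.8, 31.5, 34.4 and 40.1 CPM in healthy knock-in mice, and 8.98, 9.61, 8.06 and 6.33 CPM in wild-type mice. Eno3, muscle enolase, had 6.49, 5.01, 8.06 and 6.89 CPM in sick mice, 15.4, 12.3, 14.2 and 17.4 CPM in healthy knock-in mice, and 5.02, 7.49, 3.73 and 3.98 CPM in wild-type mice, so that sick and wild-type mice overlapped.

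Mb, which encodes the oxygen store myoglobin of oxidative fibres and heart, had 6, 10, 2 and 2 counts in sick mice, 185, 194, 187 and 291 counts in healthy knock-in mice, and 0, 0, 1 and 0 counts in wild-type mice. Ckmt2, the creatine kinase of sarcomeric mitochondria, had 0, 1, 0 and 0 counts in sick mice, 185, 204, 147 and 275 counts in healthy knock-in mice, and 0, 4, 0 and 1 counts in wild-type mice. Eef1a2, the translation elongation factor of adult muscle and neurons, had 1, 5, 1 and 4 counts in sick mice, 32, 47, 37 and 62 counts in healthy knock-in mice, and none in wild-type mice. Per kilobase of exon, Mb and Ckmt2 had like levels in healthy knock-in kidney (8.24 and 7.82 CPM), but sick kidney held 1 count of Ckmt2 in all where it held 20 of Mb.

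Set against wild-type mice, 29 of the 36 members that passed the filter on low counts were called higher in healthy knock-in mice and 0 lower, where 0.308% of the 15589 genes tested were called higher and 0.00641% lower (edgeR's quasi-likelihood test). The members were chosen on this difference, so nothing is read from the count. In 32 of the 38 every healthy knock-in library stood above every wild-type library, which 2.17% of genes tested did, and in none did every one stand below, which 1.8% did. The median log2 difference over the 36 was 6.08, or 6.01 with the 3 genes that had no wild-type count at their bound, against -0.01 over all genes tested.

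Folds in that comparison were limited by the few wild-type counts. Taking 3 counts per group as the floor for a group with none, Myh2 was at least 115-fold, Myot at least 90.3-fold and Eef1a2 at least 47.7-fold higher in healthy knock-in mice. The ratio was 548 for Ckm (95% counting interval 187 to 2660) and 689 for Mb (123 to 27251), where wild-type mice held 3 counts and 1 count in all. The 6 members that overlapped between the groups were the slow isoforms Tnnt1, Tnnc1, Myh7 and Tnni1 and the genes Trdn and Smpx.

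Sick against healthy knock-in mice is likewise a description, since it holds the libraries that chose the members. Of the 36, 32 were called lower and 1 higher (Myom1), where 21.9% of all genes tested were called lower and 24.5% higher. Libraries did not overlap in 30 that were lower and 1 that was higher, which 23.2% and 24% of genes tested did. With library totals alone, 30 members were called lower and 2 higher, beside 1425 genes lower and 8581 higher. The median log2 difference over the 36 was -4.39, against 0.05 over all genes tested. The log2 difference was -5.35 ± 0.48 (SE) for Acta1, -4.39 ± 0.85 for Myh4, -8.67 ± 0.67 for Myh1, -1.76 ± 0.16 for Pygm and -0.44 ± 0.31 for Mybpc2. The differences of these genes ranged from -8.67 to -0.44, and whether members differ among themselves was not tested. Pygm and Mybpc2 also had a level of their own in wild-type kidney.

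Sick and wild-type mice can be compared without the libraries that chose the members. In these 8 libraries alone, 12 of the 38 passed the filter on low counts. Called higher in sick mice were 6 of the 12 (Acta1, Neb, Ldb3, Myom1, Mybpc2 and Casq1), where 23.9% of the 15149 genes tested there were, and 1 was called lower (Tnnc1), where 21.9% were (edgeR's quasi-likelihood test, Benjamini-Hochberg adjusted p below 0.05). Mylpf, Tnnt1, Myom2, Pygm and Eno3 were not called.

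In the fit to all 12 libraries, which share 1 estimate of spread, the other 24 of the 36 members tested passed the filter only through the healthy knock-in libraries, which chose them, so the counts over the 36 are a description from which nothing is read. Called higher were 18 of the 36, where 25.9% of all genes tested were called higher, and 4 were called lower, where 25% of all genes were. The libraries did not overlap in 10 members that were higher and in 1 that was lower, where 22.7% and 20.6% of genes tested did so. The median log2 difference over the 36 was 1.65, against 0.02 over all genes tested. It was 1.34 with Eef1a2 at its bound and without Myh2 and Myot, which had no wild-type count and whose 2 and 4 sick counts did not exceed the level of 3 wild-type counts.

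Without sick mice 2 and 4, whose muscle sums were the highest of their group, 7 of the 36 members were called higher and 3 lower, where 19.4% and 16.9% of all genes tested were. The same member counts came out when wild-type mouse 2 was left out as well, with Eno3 called in place of Acta1, where 22% and 20.2% of all genes were called. Without sick mouse 2 alone, 12 members were called higher and 3 lower, where 23.6% and 21.6% of all genes were. With libraries scaled by their totals alone, which put the median log2 difference of all genes at 0.61, 22 members were called higher and 2 lower, beside 8420 genes higher (54%) and 1605 lower (10.3%), and Myh1 and Tnnc1 lost their calls (adjusted p = 0.0516 and 0.0549). The muscle sum on that scale averaged 102 CPM in sick mice, against 36.9 CPM in the wild-type group, a ratio of 2.75, against 1.83 with the scaling used elsewhere.

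Members that stayed called higher without sick mice 2 and 4 were Acta1, Neb, Myom1, Mybpc2, Ryr1, Casq1 and Mb. Ryr1 and Mb did not pass the filter in the 8 libraries alone, so their calls are a description. In the fit to all 12 libraries, Mybpc2 was higher in sick mice by 2.92 ± 0.35 on the log2 scale (SE, adjusted p = 3.05e-05, edgeR). Without sick mice 2 and 4 the difference was 2.35 (adjusted p = 0.000328, edgeR). In the same 12-library fit, Neb was higher by 1.74 ± 0.27 (adjusted p = 0.000197, edgeR), Myom1 by 1.90 ± 0.33 (adjusted p = 0.00044) and Casq1 by 2.55 ± 0.45 (adjusted p = 0.0005). That fit takes its spread also from the healthy knock-in libraries, which chose the members. In the 8 libraries alone the adjusted p was 0.000447 for Mybpc2, 0.00167 for Neb, 0.00228 for Myom1 and 0.00321 for Casq1 (edgeR). For these 4 genes all 4 sick libraries stood above all 4 wild-type libraries.

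Acta1 was higher in sick mice by 3.48 ± 0.71 on the log2 scale in the 12-library fit (SE, adjusted p = 0.00129, edgeR). In the 8 libraries alone its adjusted p was 0.00643 (edgeR). Without sick mice 2 and 4 and wild-type mouse 2 the difference was 1.92 (adjusted p = 0.0532). Ryr1 was higher by 2.59 ± 0.57 and Mb by 3.19 ± 0.80 in the fit to all 12 libraries, both with no overlap between the groups. Neither passed the filter in the 8 libraries alone, so these values are a description. Mb rested on 20 counts in sick and 1 count in wild-type mice, a ratio of 12.9 with a 95% counting interval of 2.06 to 534.

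Myh4, Tnnt3 and several other fast genes lost their call without sick mice 2 and 4. Apart from Ldb3, the genes named in this paragraph did not pass the filter in the 8 libraries alone. Their calls come from the fit to all 12 libraries and are a description. Myh4 was called higher in sick mice, by 3.87 ± 1.27 on the log2 scale (SE). This became -0.00085 without sick mice 2 and 4, and -0.51 when wild-type mouse 2 was left out too. The call was also lost when any one of sick mice 2 and 4 and wild-type mice 1, 2 and 3 was left out, as were those of Tnnt3 and Myl1. Tnnt3 was called higher by 2.14 ± 0.76, which became 0.14 without sick mice 2 and 4 and -0.06 without wild-type mouse 2 as well. Atp2a1, Ckm, Tnnc2, Tnni2, Myl1, Ttn, Myoz1, Eef1a2 and Ldb3 were also called higher with all libraries and not without sick mice 2 and 4.

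Called lower in sick mice in the fit to all 12 libraries were Trdn, Smpx, Tnnc1 and Myh1. Tnnc1 was lower by 1.39 ± 0.37 on the log2 scale (SE, adjusted p = 0.00728, edgeR), and was also called in the 8 libraries alone (adjusted p = 0.0131). Trdn was lower by 3.64 ± 0.77, Smpx by 2.18 ± 0.47 and Myh1 by 2.65 ± 0.87. Trdn, Smpx and Myh1 did not pass the filter in the 8 libraries alone, so their differences are a description. Only Smpx had no overlap between the groups. Without sick mice 2 and 4, Tnnc1 was not called, at -1.26 (adjusted p = 0.0725). Myh1 lost its call without sick mouse 1, sick mouse 2 or wild-type mouse 2, at -2.21, -2.39 and -1.73. Its wild-type level was 23 counts in all, 15 of them in mouse 2.

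By role, in the fit to all 12 libraries, called in sick against wild-type mice were 4 of 9 thick filament genes tested higher, 5 of 8 thin filament genes, 3 of 8 Z-disc and titin genes, 3 of 5 coupling genes and 2 of 5 energy genes, beside Eef1a2. The thick filament, thin filament, Z-disc and coupling genes each held 1 called lower. Over all genes tested, 25.9% were called higher and 25% lower, so that for these small groups the counts are a description. Of 12 fast isoforms, 8 were called higher and Myh1 lower, while of the 2 slow isoforms tested, Tnnt1 was not called and Tnnc1 was lower.

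**Figure D3:**
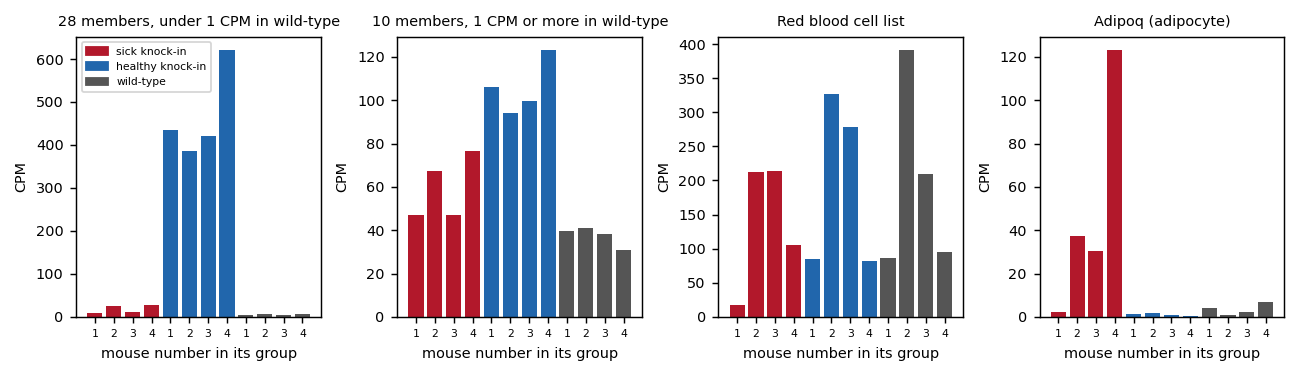
Summed CPM per library of the 28 members under 1 CPM in wild-type, of the 10 members at 1 CPM or more in wild-type and of 6 red blood cell genes, and the CPM of Adipoq, with 1 bar per mouse. The 28 members stand at 387 to 621 CPM in healthy knock-in mice and at most 27.1 CPM elsewhere, and Adipoq reaches 123 CPM in sick mouse 4.

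The fibre mix within the healthy knock-in libraries was fast. Per kilobase of exon, Myh4, Myh1 and Myh2 made up 99.9% ± 0.0245 of the 4 adult heavy chains there (SD over 4 mice), from 5451 of 5457 counts. Within the fast chains, Myh4 held 59.8%, 58.0%, 60.7% and 61.3% in mice 1 to 4, Myh1 33.4%, 34.0%, 33.8% and 31.7%, and Myh2 6.80%, 8.05%, 5.46% and 6.997%. The order Myh4, Myh1, Myh2 was the same in each of the 4 mice. Fast troponins made up 94.2% ± 0.322 of troponin per kilobase, and most of the rest was Tnnc1, which wild-type kidney held at a like level.

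Troponin shares in the other groups were mixed. The fast share was 20.3%, 58.3%, 30.7% and 61.6% in sick mice 1 to 4, and 2.59%, 3.20%, 1.92% and 12.3% in wild-type mice 1 to 4. Those of wild-type mice rest on 1, 4, 1 and 13 fast counts. The heavy chain share could not be read in all mice: sick mouse 1 held 3 heavy chain counts, all of them Myh7, and wild-type mice held 4 to 16 counts each.

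Cardiac genes did not follow Actc1. Of the 10 cardiac markers examined, Nppa and Nppb, the natriuretic peptides of heart, had no count in any healthy knock-in library, and Nkx2-5 and Myl7 did not exceed 0.114 and 0.127 CPM there. The summed cardiac list stood at 4.81 to 11.4 CPM in sick, 7.77 to 16.3 CPM in healthy knock-in and 6.84 to 20.5 CPM in wild-type mice, with 0 of its 4 tested genes called in healthy knock-in against wild-type mice. Its most abundant genes were Ryr2 at 0.984, 7.07 and 7.81 CPM, Mybpc3 at 0.253, 3.31 and 3.36 CPM and Tnnt2 at 3.46, 0.190 and 0.138 CPM on average in sick, healthy knock-in and wild-type mice. Slow genes outside the 38 were low as well, with Casq2 at 0.803, 0.412 and 0.492 CPM, Myl3 at 0.0706, 0.243 and 0.117 CPM and Myoz2 at 0.191, 0.187 and 0.0433 CPM on average in the same groups.

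Markers of immature or regenerating muscle were also low in healthy knock-in kidney. Myh8, the perinatal heavy chain, averaged 0.355 CPM in sick, 0.740 CPM in healthy knock-in mice and 0.620 CPM in wild-type mice, and the embryonic chain Myh3 averaged 0.0275, 0.0877 and 0.0350 CPM. Ncam1, an adhesion molecule of regenerating fibres and of nerve, made up most of this list and went the other way, at 9.16 CPM in sick, 1.87 CPM in healthy knock-in mice and 1.36 CPM in wild-type mice, and was called higher in sick than in wild-type mice by 2.74 ± 0.49 on the log2 scale (SE, adjusted p = 0.000513, edgeR). The 4 genes of the list in the table summed to 7.21 to 15.3 CPM in sick, 1.84 to 4.88 CPM in healthy knock-in and 1.30 to 3.07 CPM in wild-type mice. The satellite cell genes Myf5, Msc and Chodl summed to 0.384 to 1.13 CPM in sick, 0.0568 to 0.105 CPM in healthy knock-in and 0 to 0.196 CPM in wild-type mice. Some markers of these lists are not analysed here, among them Myl2, Myod1, Myog and Pax7.

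The ratios between members were close to constant across the 4 healthy knock-in mice. For the 35 members with at least 10 counts in each of the 4 libraries, each was set against the summed members of its own library. The SD of the log2 ratio over mice had a median of 0.123, beside a median of 0.1003 from Poisson counting alone. It was within the counting value in 14 of the 35 members and above it in the others. Without that division the SD of log2 CPM had a median of 0.299. The smallest SD was 0.00778 for Tnnc2 (2.51% ± 0.0136 of the summed members), and Atp2a1 (8.01% ± 0.151), Ckm (5.12% ± 0.122), Ttn (6.01% ± 0.149) and Mylpf (2.96% ± 0.0878) were also within their counting SD.

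The spread can also be put as the variance over mice relative to Poisson counting. It had a median of 1.23 over the 35 members when each library was scaled by its own muscle sum, against 9.20 for the same genes and 5.43 for 14032 genes of the table when scaled by library size. Since the members themselves make up that sum, a part of the fall follows from the division. The largest values after division were 6.90 for Pygm, 5.56 for Myh4, 5.26 for Myom2 and 5.01 for Ldb3. Pygm, Myom2 and Ldb3 have a level of their own in wild-type kidney. Pygm and Ldb3 took their lowest share in healthy knock-in mouse 4, the mouse with the highest muscle sum, whereas Myh4 and Myom2 took theirs in mouse 2.

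**Figure D4:**
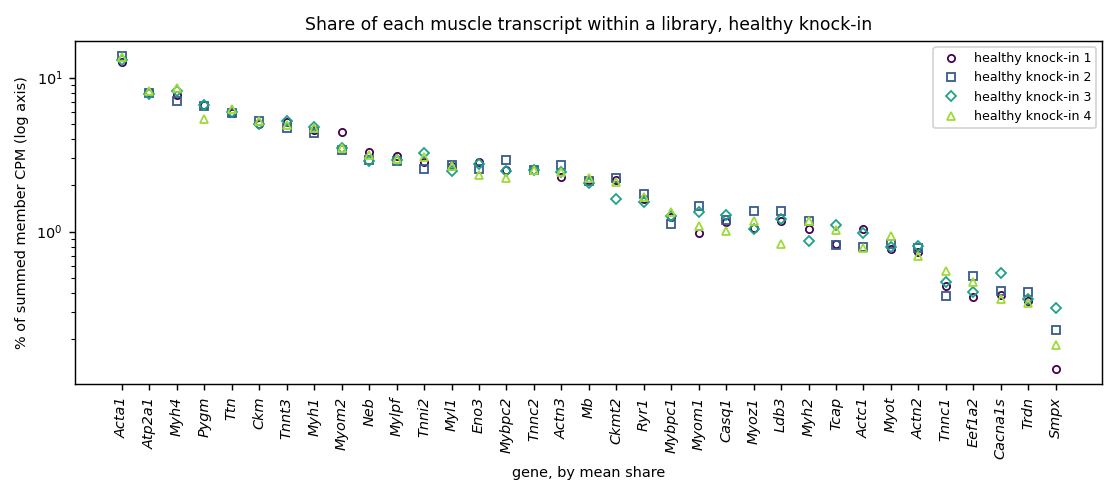
Share of each of 35 members in the summed member CPM of its library, in percent on a log axis, for the 4 healthy knock-in mice (1 symbol per mouse). Symbols of a gene nearly coincide for some abundant members, such as Atp2a1 at 8.01% ± 0.151, and spread most for Smpx at 0.215% ± 0.0806. Among abundant members, Myh4 at 7.91% ± 0.647 and Pygm at 6.30% ± 0.604 spread more than Atp2a1.

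Most members were highest in the same mouse. In 33 of the 38, healthy knock-in mouse 4 had the highest CPM of its group, and its muscle sum was 744 CPM against 481 to 541 CPM in mice 1 to 3. The red blood cell list, which follows blood left in the tissue, ranged 3.96-fold over the healthy knock-in mice, at 82.3 CPM in the lowest, against 1.55-fold for the muscle sum. Mouse 4, highest in muscle, was the lowest of its group in that list, but mouse 1 was close. The globin genes Hba-a1 and Hbb-bs were lower in mouse 1 than in mouse 4 (17.5 against 17.8 and 38.4 against 41.7 CPM).

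Counts relative to Acta1 differed between sick and healthy knock-in mice. Only sick mice 2 and 4 held over 50 counts of Acta1 (74 and 62), so their mix was read per 100 Acta1 counts. Of the 27 other members under 1 CPM in wild-type, 16 stood above the healthy knock-in range in both mice, 7 stood below it in both, and 4 did neither. No wild-type level was subtracted, so the 16 are not read as a change in muscle mix. Some of them had like means in sick and wild-type mice: Mylpf 0.804 and 0.768, Actn3 0.812 and 0.684, Actn2 0.267 and 0.348 CPM. Others did not, such as Myh4 at 2.09 and 0.130 CPM. Myh7 rested on 1 count in each of the sick mice. Per 100 Acta1 counts, Myh4 had 174 and 116 in sick mice 2 and 4, against 51.6 to 63.1 in healthy knock-in mice, and Atp2a1 had 141 and 98.4, against 57.9 to 63.6. Myh1 had 1.35 and 6.45, against 31.9 to 36.9, and Ckmt2 had 1.35 and 0, against 12.5 to 17.3. The 7 below the range in both were Actc1, Myh1, Myh2, Myot, Mybpc1, Ckmt2 and Mb.

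Myh1 as a share of Myh1 and Myh4 counts shows the contrast within single libraries. It was 1 of 130 counts (0.769%, 95% Clopper-Pearson interval 0.0195% to 4.21%) in sick mouse 2 and 4 of 76 (5.26%, 1.45% to 12.9%) in sick mouse 4, against 37.1%, 38.2%, 37.0% and 35.3% in healthy knock-in mice 1 to 4, of 1049 to 1747 counts. Sick mouse 3 held 5 counts, all Myh4, and sick mouse 1 held none. Wild-type mice 1 to 3 held 5, 15 and 2 counts, all Myh1, while mouse 4 held 8 of Myh4 and 1 of Myh1. The intervals cover counting error only, and this ratio was chosen after its values were seen, so no test is given.

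**Figure D5:**
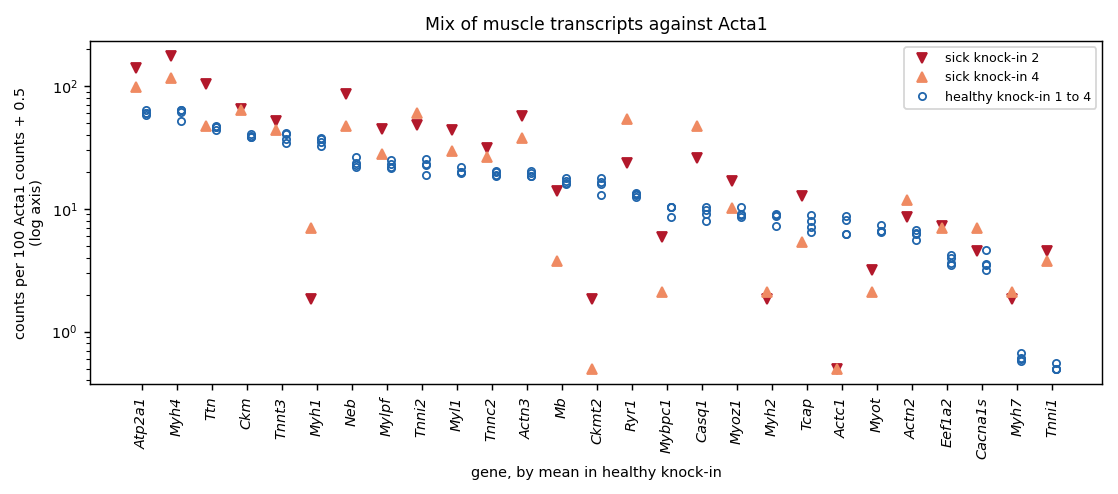
Counts of 27 members per 100 counts of Acta1, plus 0.5, on a log axis, in sick mice 2 and 4 and in the 4 healthy knock-in mice. Myh1, Mb, Ckmt2, Mybpc1, Myh2, Actc1 and Myot lie lower in both sick mice than in all healthy knock-in mice, and 16 other members lie higher. No wild-type level was subtracted.

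Sick mice 2 and 4 had the highest muscle sums of their group, but fat cell genes did not all rank the mice that way. Cidec and Plin1 were lower in sick mouse 2 than in sick mouse 3 (39.3 against 48.0 and 3.52 against 9.29 CPM). Cfd and Retn were higher in mouse 2 (207 against 148 and 8.83 against 6.52 CPM). The fat cell gene Adipoq was highest in sick mouse 4, with mice 2 and 3 close to each other. Its level was 2.11, 37.1, 30.4 and 123 CPM in sick mice 1 to 4, 1.46, 1.84, 0.916 and 0.284 CPM in healthy knock-in mice, and 4.13, 0.648, 2.17 and 6.98 CPM in wild-type mice, and Ucp1 of brown fat reached 16.8 CPM in sick mouse 4. Of the 9 white fat genes tested, 6 were called higher and 1 (Pck1) lower in sick than in wild-type mice, and 0 in healthy knock-in against wild-type mice. The list summed to 1015 to 3262 CPM in sick, 2278 to 8399 CPM in healthy knock-in and 3052 to 4383 CPM in wild-type mice, most of it Pck1, which kidney tubules also make (1485, 4091 and 3457 CPM on average). The brown fat list summed to 65.7 to 262 CPM in sick, 31.8 to 74.0 CPM in healthy knock-in and 52.4 to 62.1 CPM in wild-type mice, and the smooth muscle list to 734 to 1683, 408 to 654 and 373 to 386 CPM. Tendon and fibroblast genes summed to 48.0 to 98.4, 21.2 to 30.0 and 18.9 to 30.7 CPM in the same groups. The part of other tissue in any of these differences was not tested.

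Other skeletal muscle genes, from a list of 62 names of which 42 were tested, followed only in part. In healthy knock-in against wild-type mice, 8 were called higher and 0 lower, where 0.308% and 0.00641% of all genes tested were. In sick against wild-type mice 15 were called higher and 11 lower, where 25.9% and 25% of all genes tested were. Several of the list have a kidney level unrelated to the 38. Sypl2, a junction protein of muscle membranes, averaged 12.6 CPM in sick, 101 CPM in healthy knock-in mice and 103 CPM in wild-type mice. Car3, carbonic anhydrase of muscle and fat, averaged 249.98 CPM in sick mice, of which 778 CPM in mouse 4, 31.2 CPM in healthy knock-in mice and 71.9 CPM in wild-type mice. Cryab, a small heat shock protein, averaged 92.4, 47.2 and 49.5 CPM.

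The 10 genes outside the 38 whose level ran most like the muscle sum over the 12 libraries were found by their Pearson correlation of log2 CPM, given as a description, since 4 libraries of 1 group set most of it. Among them were Ampd1 (0.976), Smyd1 (0.939), Xirp2 (0.934), Mylk4 (0.927), Txlnb (0.918), Hrc (0.908), Mylk2 (0.874), Epha6 (0.873) and H19 (0.870). Ampd1, the AMP deaminase of skeletal muscle, averaged 0.0929 CPM in sick, 1.13 CPM in healthy knock-in mice and 0.0163 CPM in wild-type mice. Xirp2, an actin-binding protein of striated muscle, averaged 0.440, 4.66 and 0.0816 CPM. H19, an imprinted RNA that adult skeletal muscle also makes, averaged 0.802, 2.58 and 0.152 CPM.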

How the data were processed

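Kidney RNA of 12 mice was sequenced, 1 library per mouse, and groups were taken from the labels. Per the submitters' processing notes, the build was GRCm38 and the tools were Cufflinks, DESeq2 1.12.4, TopHat2 2.0.11 and Trim Galore 0.3.7, with counting program, annotation and strand use not given in the sources used here. A deposited table holds whole-number counts per gene, not normalized, per the file headers. The authors' 12 normalized columns were not used.

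From these counts, edgeR 4.0.16 in R 4.3.3 kept 15589 genes (filterByExpr by group) and scaled libraries by TMM. All 12 libraries entered 1 quasi-likelihood fit with a mean for each group. Its F tests were Benjamini-Hochberg adjusted over the 15589 genes and called at 0.05. SEs of log2 differences were derived from F. Shares used exon lengths of GENCODE M21. The code was tested on simulated data with known changes. Members and lists were chosen with earlier results of these data known. All 38 members are named, with values per library for up to 3 per role and for each isoform. Alternatives were other scalings and filters, DESeq2 1.42.0, the 8 libraries compared, a replicate block and leaving out libraries. Intervals (95%) and floors of 3 counts cover counting error only. Same-numbered mice were not paired: their correlations ran from -0.26 to 0.243. One gene like the muscle sum is not reported here.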

Additional observations from a re-analysis of the deposited data

Results flagged for a closer look

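Of 83 sets of 4 values examined, 10 had 1 value far from the other 3 (Dixon's test at the 95% level), and chance flags about 1 in 20. In sick mice, Tnnt1 was low in mouse 1, at 0.689 CPM, against 1.69 to 1.89 CPM in the other 3. Ryr1 was high in sick mouse 4, at 1.70 CPM, against 0.405 to 0.564 CPM.

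Healthy knock-in mouse 4 stood above its group in 6 genes, and these values are not independent, since the members ran together there. Acta1 was at 101.6 CPM in that mouse, against 66.1 to 68.1 CPM in the other 3, and Ckm at 38.8 CPM, against 25.1 to 27.2 CPM. Actn3 was at 18.2 CPM, against 12.3 to 13.0 CPM, and Ryr1 at 12.5 CPM, against 8.13 to 8.83 CPM. Myot was at 6.98 CPM, against 3.99 to 4.19 CPM, and Trdn at 2.56 CPM, against 1.89 to 1.94 CPM.

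In wild-type mice, Mybpc2 was high in mouse 2, at 2.18 CPM, against 0.971 to 1.17 CPM in the other 3. The fast share of troponin was high in wild-type mouse 4, at 12.3%, against 1.92% to 3.20%. That mouse also held all 8 Myh4 counts and 7 of the 9 Acta1 counts of its group.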

How the results depend on the processing

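Members called in sick against wild-type mice numbered 22 in the full fit, beside 7933 genes called in all. They numbered 7 with the 8 libraries compared alone, where 12 members were tested, beside 6944 genes, and 10 without sick mice 2 and 4 together or without these and wild-type mouse 2, beside 5778 and 6685 genes, alternatives chosen after seeing the data. Leaving out 1 library gave 15 to 22 members there, where 22.6% to 26.9% of genes tested were called higher and 20.6% to 25.9% lower. Healthy knock-in set against the wild-type group gave 29 to 30, where 0.258% to 0.324% were called higher and at most 0.0191% lower. Sick set against healthy knock-in gave 32 to 33, where 20.6% to 27.7% were called higher and 18.1% to 25.9% lower. The members were chosen on the healthy knock-in libraries, so nothing is read from these counts with 1 library left out. Without sick mice 2 and 4, the log2 difference of Myh4 became -0.00085, and with wild-type mouse 2 left out too, Myh4 became -0.51 and Tnnt3 -0.0583. With library totals alone, the median log2 difference of all genes became 0.61 in sick against wild-type mice, the members called became 22 higher and 2 lower and the genes called 8420 higher and 1605 lower, against 4032 and 3901, and the summed level became 102 CPM in sick mice, against 36.9 CPM in the wild-type group. DESeq2 called 81 genes in healthy knock-in against wild-type mice, where edgeR called 49. The fast heavy chain share in healthy knock-in mice was 99.9211%, 99.8904% with no length correction and 99.9833% with wild-type levels subtracted, and the fast troponin share was 99.6% with wild-type levels subtracted. With the replicate number as a block, 21 members and 7480 genes were called in sick against wild-type mice, and Myl1 and, in healthy knock-in against wild-type mice, Eno3 lost their call. The cause of these changes was not tested. Depth limits every member near 0: with 0 to 3 counts over a group, folds are bounds or carry wide intervals.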
